A study of Nannochloropsis oceanica strain IMET1 with 6 samples.

Results

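Long genes without introns are the subject here. They were chosen from the deposited gene table as the genes with a listed length of at least 4000 bases whose span from start to end equals that length, so that no base between the ends is left out as intron. The rule finds 191 of 9552 genes, and no expression value enters it. All 191 had a mean of at least 1 normalised read over the 6 libraries and were tested. The genes set beside them are the 946 intron-containing genes with a length of at least 4000 bases after the introns are taken out, of which 942 were tested. The length listed is that of the exons together, and the table lists no exons, so a gene with 1 transcript variant that keeps its introns would also meet the rule. For 7 of the 191 genes the deposited FPKM rests on a length at least 1% shorter than the one listed, against 229 of the 946.

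The libraries come from Nannochloropsis oceanica strain IMET1, a single-celled marine alga that stores oil. HLM23, a mutant line in which an insertion disrupts the gene NO06G03670, was compared with the wild type (WT), with 3 libraries of messenger RNA from each. Both strains grew for 3 days in 25 ml of artificial sea water with a nutrient supplement, from an optical density of 0.1, at 25 °C in air with 0.2% CO2, in light of 600 μmol photons on each square metre a second for 16 h of light and 8 h of dark a day. They were collected 1 h before the dark. No drug or stress distinguishes the strains, and the labels name only the disrupted gene as the difference between them. Nothing in them says that each replicate had its own culture, so the p-values rest on the spread among these libraries alone, and that spread may be technical.

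In most eukaryotic genes the primary transcript carries introns, which the spliceosome removes before the messenger RNA leaves the nucleus. A gene without introns gives a transcript that needs no splicing, only a cap at its start and a poly(A) tail at its end. Genomes of this algal genus are compact, with short distances between neighbouring genes. The deposited table pairs its gene IDs with no descriptions, and 0 of the IDs matched the 160 organelle genes of the reference table, so the proteins coded by these genes are not named here. No genome sequence of the build was used, and no promoter or coding sequence is shown.

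Each library held 15331673 to 18711316 reads counted to genes, of which 196711 to 301020 fell on the long genes without introns. The values are the authors' normalised read counts, called normalised reads below, which are relative to the other transcripts of a library. A fall of these transcripts and a rise of the others therefore cannot be told apart, and neither cell number nor RNA per cell is shown. The disrupted gene NO06G03670 has introns and a length of 9030 bases, and so belongs to the comparison genes. It stood at 1073, 982 and 777 normalised reads in the mutant libraries and at 2164, 1664 and 1682 in those of the WT, with no overlap (-0.96 ± 0.18 SE as log2 fold change, limma adjusted p = 0.0026). Over the 191 genes, Spearman correlations between libraries ran from 0.955 to 0.981 within a strain and from 0.848 to 0.965 between the strains, and the highest between the strains joined both replicate 2 libraries.

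The 191 genes lie on 27 of the 30 chromosomes, with 97 on the plus and 94 on the minus strand. Chromosomes 19, 24 and 30, which carry 602 genes, have none. Chromosome 8 has 16, or 3.84% of its genes, the highest share of any chromosome. Their lengths run from 4007 to 15018 bases with a median of 4887, close to the median of 5024 among the comparison genes, whose longest reaches 48853. The comparison genes carry a median of 425.5 intron bases each, so most of them hold little intron sequence beside their exons.

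In this annotation 14 of the 191 genes (7.33%) overlap at least 1 other gene, against 221 of the 946 comparison genes (23.4%), 4.26% of the shorter genes without introns and 13.7% of all genes. All 14 overlap a gene on the opposite strand. The median distance to the nearest gene was 46 bases, against 15 for the comparison genes and 61 for all genes. Their median distance to the nearer end of the chromosome, taken as its first base or the last base of its last annotated gene, was 342415 bases, against 271253.5 for the comparison genes. A length that is a multiple of 3, which a model holding coding sequence alone must have, was found in 94 of 191 (49.2%) against 363 of 946 (38.4%), 66.5% of the shorter genes without introns and 57.0% of all genes. These differences of position and structure are descriptions of the annotation and were not tested.

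Per kb of gene length, long genes without introns had a lower median level than intron-containing genes of at least the same length in each of the 6 libraries. The median level was 135, 151 and 127 normalised reads per kb in HLM23 and, in the WT libraries, 173, 154 and 158. For the comparison genes it was 166, 179 and 157 in HLM23 and 204, 186 and 194 in the WT. The median of the genes without introns was thus 82.0% ± 1.97 of that of the comparison genes in HLM23 against 82.8% ± 1.60 in the WT (SD, n = 3), and the strains overlapped in this ratio. The spread between genes was wide in both classes, with quartiles of the mean over the 6 libraries at 63.0 and 288 normalised reads per kb for the genes without introns and at 81.9 and 369 for the comparison genes.

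**Figure D1:**
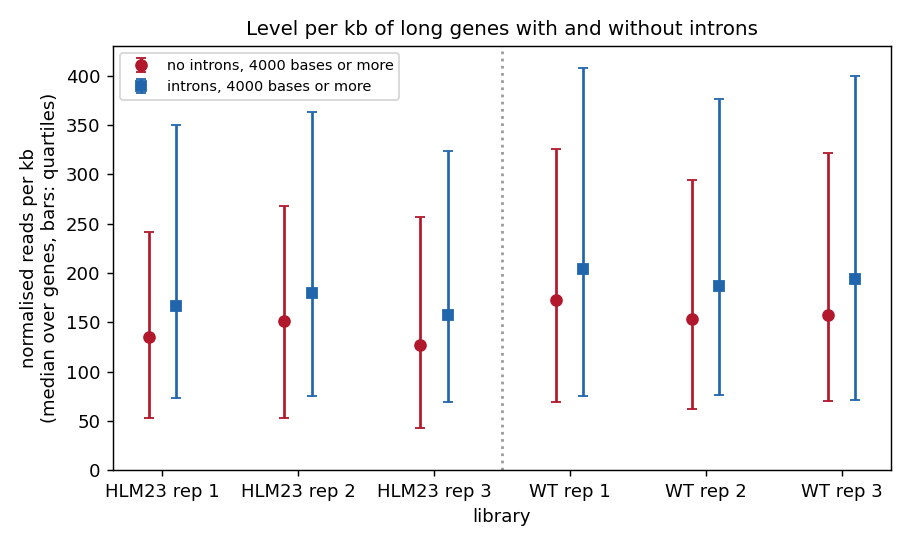
Normalised reads per kb of gene length in each of the 6 libraries, for the 191 genes of at least 4000 bases without introns (circles) and the 946 with introns (squares); points are medians over genes and bars run from the lower to the upper quartile over genes. The circle lies below the square in every library, and the quartile ranges of the classes overlap widely.

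The lower median was present in each of 4 length ranges. From 4000 bases to under 5000 the median over genes in the WT was 191 ± 7.68 normalised reads per kb without introns (104 genes) and 217 ± 14.7 with introns (466 genes; SD, n = 3 libraries). From 5000 bases to under 6000 it was 140 ± 5.71 against 183 ± 8.90, from 6000 to under 8000 143 ± 18.4 against 194 ± 7.67, and at 8000 bases or more 117 ± 17.0 against 148 ± 2.36. Shorter genes were expressed higher per kb in both classes, at 211 ± 5.70 without introns and 356 ± 1.98 with introns in the WT. The gap between genes with and without introns was therefore wider below 4000 bases than above it in these medians.

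Compared between the strains, more of the long genes without introns were lower in HLM23 than higher. Of the 191 genes, 81 passed an adjusted p of 0.05 in limma (42.4%), against 28.9% of all tested genes. Among them 25 were higher in HLM23 (13.1%, against 14.5% of all tested genes) and 56 were lower (29.3%, against 14.3%). At least 2-fold, 11 rose and 23 fell, where the backgrounds of 7.66% and 5.24% of all tested genes lean the other way. In 79 of the 191 genes every HLM23 library was lower than every WT library, where 22.8% of tested genes did so, and in 34 they lay above, where 24.2% did so. The median log2 fold change was -0.20, with quartiles at -0.62 and 0.22, and 132 of 191 genes (69.1%) had a value below 0 against 50.1% of tested genes. Without HLM23 replicate 1, 52 of the 191 genes were called (background 18.4%), 42 were called without WT replicate 1 (16.2%), and 49 without WT replicate 3 (16.3%). Without HLM23 replicate 2, 74 were called (25.8%), without HLM23 replicate 3, 69 (28.7%), and without WT replicate 2, 75 (27.2%). Without HLM23 replicate 3 the members' share was 36.1% against 34.3% of intron-containing genes of like length. Without WT replicate 1 it was 22.0% against 20.3%, and without HLM23 replicate 1 27.2% against 24.7%. It was 38.7% against 34.4% without HLM23 replicate 2, 39.3% against 33.2% without WT replicate 2 and 25.7% against 21.0% without WT replicate 3. Of the members, 29 were lower without WT replicate 1 (background 7.10%) and 46 without HLM23 replicate 3 (background 14.6%). Of 941 such intron-containing genes, 104 and 190 were lower. The authors' deposited table puts 86 of the 191 genes past an adjusted p of 0.05 (25 higher, 61 lower, with 31.7% of all its genes called, 16.0% higher and 15.7% lower), and 80 of these were called here as well, all 80 in the same direction.

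**Figure D2:**
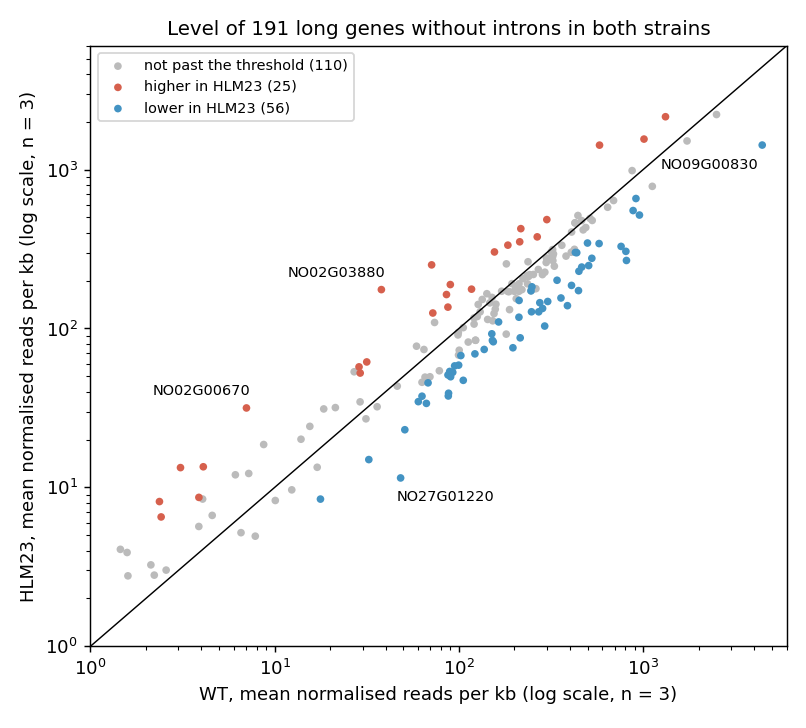
Mean level of the 191 long genes without introns in the WT (x axis) and in HLM23 (y axis), in normalised reads per kb on log scales, n = 3 libraries per strain. The line marks equal levels. The gene at 83614 to 88370 on chromosome 21, at 0.89 in the WT, lies outside the axes. The 56 genes lower in HLM23 lie mostly at middle and high levels, while the 25 higher genes reach down to 2.37 in the WT. Some genes that missed the threshold lie lower still.

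Intron-containing genes of like length leaned the same way, by less. Of 942 tested, 332 were called (35.2%), with 137 higher (14.5%) and 195 lower (20.7%), and their median log2 fold change was -0.13. Weighted to the lengths of the genes without introns, their shares were 15.1% higher and 20.5% lower, and their median log2 fold change was -0.13. The share lower in HLM23 was thus 8.83 percentage points higher among the genes without introns, and the share higher was 1.97 percentage points lower. The difference in median log2 fold change was -0.079, and the difference between the classes was not tested. It was -0.12 without HLM23 replicate 3, the farthest value with 1 library left out, -0.033 with the limit at 3000 bases and -0.23 with the limit at 5000. Just below the limit, from 3000 bases to under 4000, 41 of 245 genes without introns were higher and 37 lower (median log2 fold change 0.012), while 112 of 925 genes with introns were higher and 172 lower (median -0.083). Under 2000 bases, rises outnumbered falls in both classes, with 227 against 192 of 1653 without introns and 505 against 386 of 3317 with introns.

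In deviation from a gene's own mean, not in level, the members lay below the comparison genes in each HLM23 library and above them in each WT library. These deviations are centred on each gene, so they show the fold change library by library and are no separate evidence. Relative to a gene's mean over the 6 libraries, the median log2 deviation of the genes without introns was -0.068, -0.065 and -0.19 in HLM23 replicates 1, 2 and 3, and 0.22, 0.075 and 0.11 in the WT. For the comparison genes it was -0.024, -0.0050 and -0.10 in HLM23 and 0.090, 0.038 and 0.050 in the WT. The genes without introns lay farther from 0 than the comparison genes in all 6 libraries. WT replicate 1 was the highest and HLM23 replicate 3 the lowest: 70 of the 191 genes had their highest value in the first and 70 their lowest in the second. Of the 946 comparison genes, 289 were highest in WT replicate 1 and 325 lowest in HLM23 replicate 3. Among all 9552 genes these counts were 2036 and 2265. Without HLM23 replicate 3 the median log2 fold change was -0.20, and without WT replicate 1 it was -0.19.

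**Figure D3:**
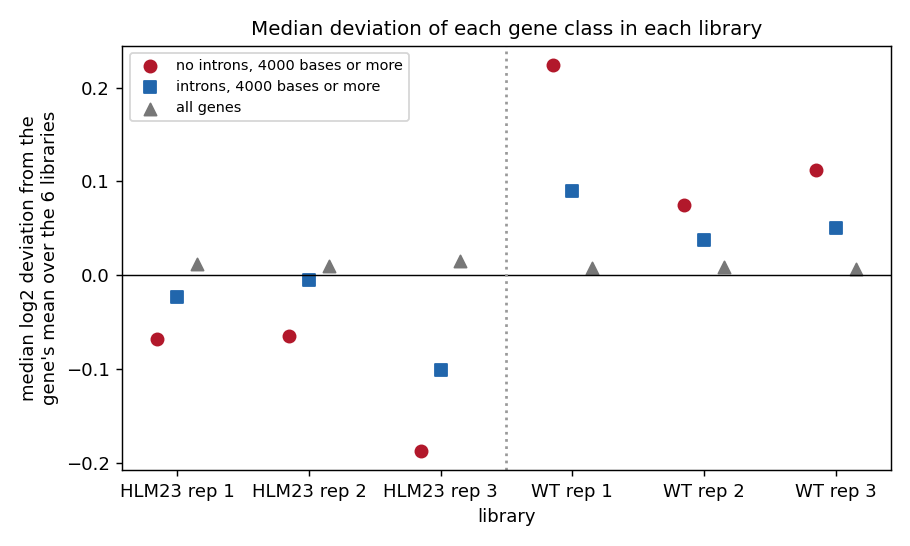
Median log2 deviation from a gene's mean over the 6 libraries, in each library, for the long genes without introns (circles), intron-containing genes of at least the same length (squares) and all tested genes (triangles). Both classes of long genes lie below 0 in the HLM23 libraries and above 0 in the WT libraries, the genes without introns farther out, while all genes stay near 0.

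The long genes without introns took 1.28%, 1.38% and 1.14% of all normalised reads in the mutant libraries and 1.83%, 1.57% and 1.62% in those of the WT. The means were 1.27% ± 0.118 and 1.68% ± 0.139 (SD, n = 3), with no overlap between the strains. Without the member that has the highest level per kb, the means were 1.24% ± 0.119 and 1.56% ± 0.126. The comparison genes took 10.7% ± 0.714 in HLM23 against 10.9% ± 0.470 in the WT, and there the strains overlapped.

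The libraries also differed in how their values moved with gene length, and the part of this in the fold changes was not tested by itself. Per doubling of length, the log2 deviation changed by -0.067 in HLM23 replicate 3 and by 0.037 in WT replicate 1, and by 0.00098 to 0.013 in the other 4 libraries (9452 genes). With a smooth length trend removed from each library, 26 of the 191 genes were higher (background 13.4%) and 52 lower (background 16.9%), together 78 where 30.4% of all tested genes were called. Their median log2 fold change was then -0.17, against -0.095 for the comparison genes and -0.059 for all genes, and the difference from the length-weighted comparison genes stayed at -0.080. When libraries were scaled to equal totals instead, which shifts the median of all genes to -0.11, 16 of the 191 were higher (background 10.8%) and 61 lower (background 17.0%), together 77 where 27.8% of all tested genes were called. More members were lower than higher, and the share lower was above its background, with the length trend removed and under either scaling.

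Among the long genes without introns, the median fold change was lower in longer and in more abundant genes. From 4000 bases to under 5000, 14 of 104 genes were higher and 28 lower (median log2 fold change -0.17), so that 26.9% were lower against 19.2% of the comparison genes in that range. From 5000 to under 6000, 8 of 47 were higher and 17 lower (median -0.30), with 36.2% lower against 20.4%. From 6000 to under 8000, 3 of 21 were higher and 7 lower (median -0.33), with 33.3% lower against 23.0%. Of the 19 genes of 8000 bases or more, 4 were called, all of them lower (median -0.34). These 21.1% are fewer than the 28.9% called among all tested genes and the 40.7% called among comparison genes of that length, of which 25.3% were lower. The comparison genes in these bins had medians of -0.14, -0.087, -0.21 and -0.12. The medians of the classes were thus closest in the shortest range, while the share lower was larger among the members in each range but the longest. Across the 191 genes Spearman's rho of fold change with length was -0.071, a description over genes that share the same 6 libraries.

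**Figure D4:**
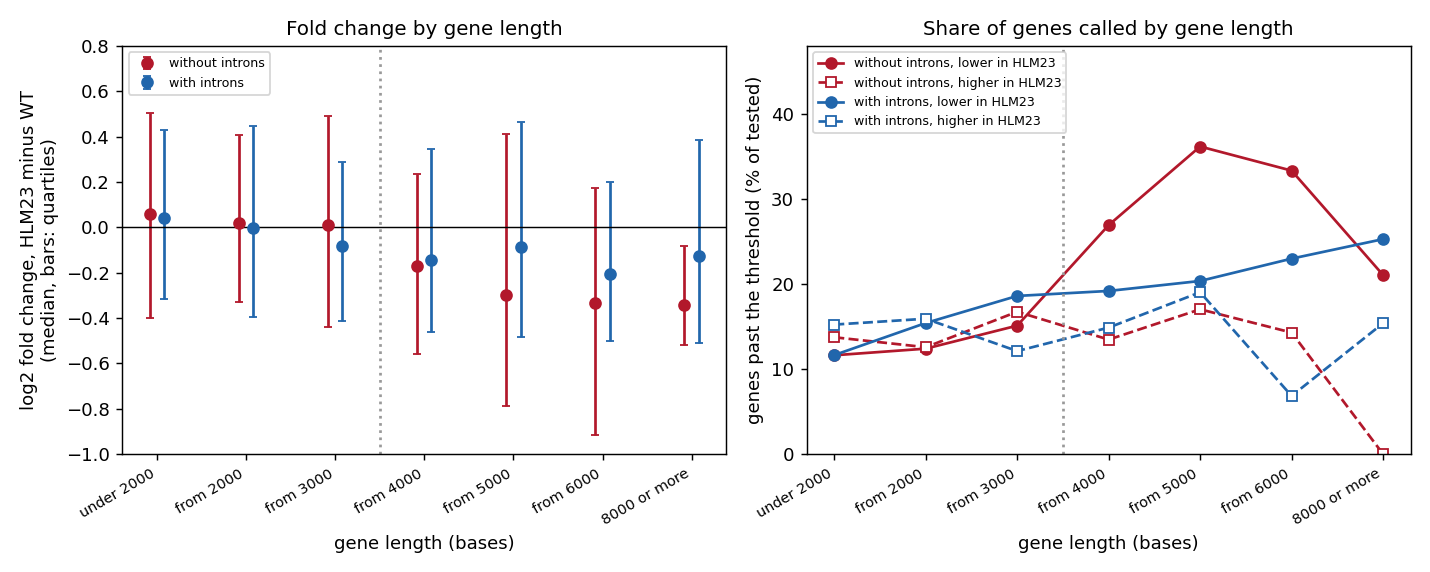
Left, median log2 fold change of HLM23 against the WT by gene length, for genes without introns (red) and with introns (blue), with bars from the lower to the upper quartile over genes; right, percent of tested genes past an adjusted p of 0.05, lower (filled circles) or higher (open squares) in HLM23. Dotted lines mark the limit of 4000 bases, beyond which the red filled circles lie between 21.1% and 36.2%.

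Ranked by mean normalised reads, the 64 least abundant members (8.53 to 451 normalised reads) held 11 higher and 15 lower genes, and their median log2 fold change was 0.21. The 63 in the middle (463 to 1252) held 6 higher and 19 lower and a median of -0.30, and the 64 most abundant (1260 to 11785) held 8 higher and 22 lower and a median of -0.31. Among comparison genes of the same ranges of normalised reads, the counts were 55 higher and 16 lower of 230, 26 and 72 of 286, and 48 and 102 of 379. Among all other genes of these ranges they were 556 higher and 401 lower of 3592, 353 and 448 of 2804, and 380 and 421 of 2226. The least abundant members thus had more falls than rises where the comparison genes of like abundance had more rises, at medians of 0.21 and 0.25. Over the 191 genes Spearman's rho of fold change with mean normalised reads was -0.24, and over the 942 comparison genes it was -0.19.

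The plus strand held 13 higher and 29 lower of 97 members, or 13.4% and 29.9%, against 14.1% and 14.7% of all tested genes on that strand. The minus strand held 12 and 27 of 94, or 12.8% and 28.7%, where 707 of 4728 tested genes were higher and 661 lower. Members with a length that is a multiple of 3 held 9 higher and 27 lower of 94, or 9.57% and 28.7%, against 13.4% and 14.4% of all tested genes with such a length, and 54 and 86 of 361 comparison genes. The other members held 16 and 29 of 97, or 16.5% and 29.9%, against 16.0% and 14.3% of all tested genes and 83 and 109 of 581 comparison genes. On chromosome 12 the 5 called of 10 members were all lower, where 56 of 370 tested genes were higher and 54 lower. On chromosome 13 there were 4 higher and 1 lower among 7 members, where 38 of 324 tested genes were higher and 56 lower. Both chromosomes were picked out after their values were seen.

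The member with the largest rise was NO02G03880 on the plus strand of chromosome 2 (1058565 to 1062682, 4118 bases). Its normalised read count was 1012, 703 and 455 in HLM23 and, in the WT libraries, 111, 250.1 and 108. The strains did not overlap, and within each strain the libraries differed widely. The means were 723 ± 279 and 156 ± 81.3 (SD, n = 3), 4.63 times the WT mean (2.24 ± 0.35 SE as log2 fold change, limma adjusted p = 0.0011). NO02G00670 on the minus strand of the same chromosome (228651 to 233677, 5027 bases) was steadier. It stood at 179, 136 and 161 in HLM23 and at 40.4, 37.4 and 28.2 in the WT, or 159 ± 21.4 against 35.3 ± 6.31 (SD, n = 3), 4.50 times the WT mean (2.14 ± 0.29 SE as log2 fold change, limma adjusted p = 0.00061). Every HLM23 library of this gene was above 3 times its highest WT library.

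**Figure D5:**
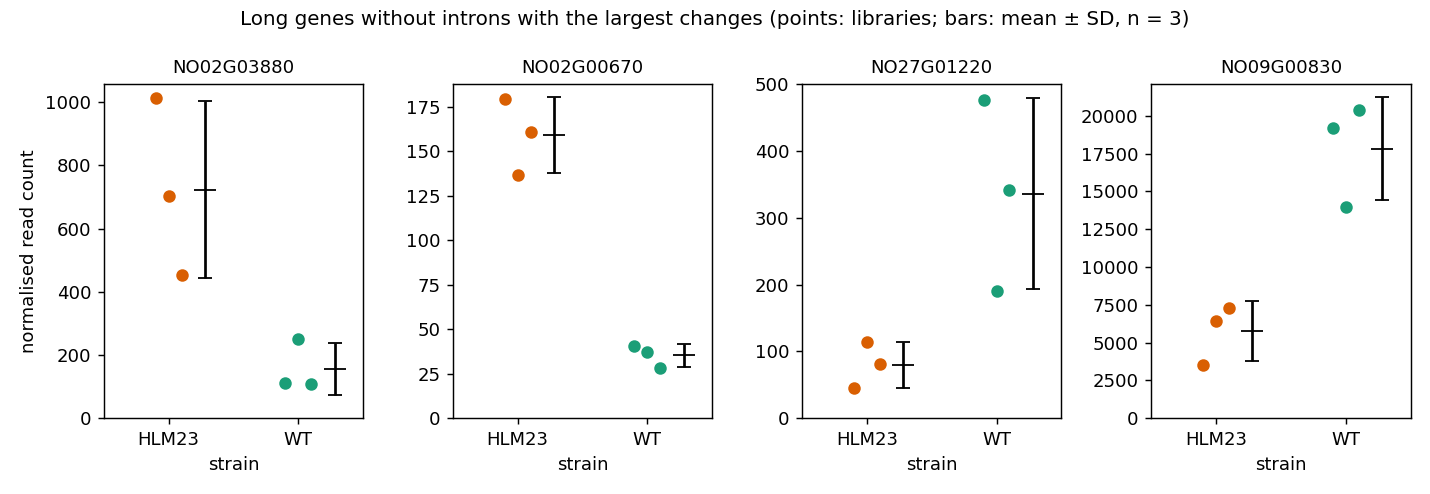
Normalised read counts of the pair of members with the largest rises (NO02G03880, NO02G00670) and the pair with the largest falls (NO27G01220, NO09G00830), 1 point per library, with the mean and SD of the 3 libraries of each strain beside them; each panel has its own axis from 0. In none of the 4 genes do the strains overlap.

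The next rises in order were of unlike abundance. The gene at 942797 to 947878 on chromosome 7 rose from 20.6, 17.2 and 9.08 normalised reads in the WT to 42.4, 90.7 and 70.0 in HLM23 (2.05 ± 0.43 SE as log2 fold change, limma adjusted p = 0.0049). The gene at 891539 to 896764 on chromosome 5 rose from 248, 468 and 399 to 1331, 1018 and 1591 (1.84 ± 0.25 SE as log2 fold change, limma adjusted p = 0.00061). The gene at 1190158 to 1197436 on chromosome 4 stood at 99.9, 100.4 and 94.0 in HLM23, the closest set of replicates among these genes, and at 21.6, 32.6 and 35.3 in the WT (1.71 ± 0.32 SE as log2 fold change, limma adjusted p = 0.0025). The most abundant of this group, at 1007637 to 1012253 on chromosome 5, stood at 7842, 6367 and 5530 in HLM23 and at 2278, 3296 and 2457 in the WT (1.30 ± 0.18 SE as log2 fold change, limma adjusted p = 0.00072). That at 554742 to 559932 on chromosome 20 rose by 1.07 in log2 terms (limma adjusted p = 0.0015). Low counts limit the other 3. They also limit the gene at 942797 on chromosome 7, at 15.7 ± 5.95 normalised reads in the WT (SD, n = 3), though its call held in each of 18 alternatives. The gene at 1007464 to 1012888 on chromosome 8 rose from 12.9 ± 4.77 to 44.2 ± 21.1 normalised reads (SD, n = 3, limma adjusted p = 0.027), and that at 721305 to 727415 on chromosome 6 from 23.7 ± 6.24 to 52.9 ± 10.7 (SD, n = 3, limma adjusted p = 0.036). The gene at 719480 to 724246 on chromosome 7 (11.5 ± 4.18 to 31.1 ± 13.0, SD, n = 3) had a limma adjusted p of 0.049. It missed the threshold in 13 of 18 alternatives, while the genes on chromosomes 8 and 6 missed it in 5 and 8 of 18. The 18 include an adjusted p under 0.01 on the same fit, which none of these 3 genes could pass.

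The deepest fall was that of NO27G01220 on the plus strand of chromosome 27 (391153 to 398118, 6966 bases). Its normalised read count was 44.5, 114 and 81.0 in HLM23 and 476, 191 and 342 in the WT. The WT libraries differed widely, yet the lowest of them lay above the highest HLM23 library. The mean fell from 336 ± 143 to 79.9 ± 34.8 (SD, n = 3), or to 23.8% of the WT mean (-2.06 ± 0.38 SE as log2 fold change, limma adjusted p = 0.0026). NO09G00830 on the plus strand of chromosome 9 (290844 to 294868, 4025 bases) fell next, and has the highest level per kb of all 191 members. It stood at 3496, 6441 and 7291 normalised reads in HLM23 and at 19172, 13957 and 20356 in the WT. That is 1427 ± 495 reads per kb in HLM23 against 4429 ± 846 in the WT (SD, n = 3), which is 32.2% of the WT mean (-1.68 ± 0.25 SE as log2 fold change, limma adjusted p = 0.00094). All 4 genes named by ID stayed past the threshold in each of 18 alternatives.

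The 8 falls that follow lay on 8 chromosomes, and their WT means ran from 545 to 4229 normalised reads. The gene at 420416 to 425624 on chromosome 6 fell from 5283, 3449 and 3953 normalised reads in the WT to 1028, 1751 and 1408 in HLM23 (-1.61 ± 0.21 SE as log2 fold change, limma adjusted p = 0.00061). The gene at 1198193 to 1202365 on chromosome 5 fell from 1321, 950.4 and 1387 to 280.2, 484 and 533 (-1.53 ± 0.25 SE as log2 fold change, limma adjusted p = 0.0013). The gene at 419061 to 427595 on chromosome 14, 8535 bases long, fell from 4454, 2169 and 3316 to 917, 1153 and 1493 (-1.45 ± 0.25 SE as log2 fold change, limma adjusted p = 0.0018). In each of these 3 genes WT replicate 2 was the lowest WT library and HLM23 replicate 1 the lowest HLM23 library, with no overlap between the strains. The others were at 300917 to 305215 on chromosome 23 (-1.39, limma adjusted p = 0.00082), at 648300 to 653021 on chromosome 11 (-1.37, limma adjusted p = 0.00094), at 633364 to 639722 on chromosome 1 (-1.35, limma adjusted p = 0.0014), at 304509 to 310224 on chromosome 13 (-1.29, limma adjusted p = 0.0013) and at 445784 to 452009 on chromosome 20 (-1.23, limma adjusted p = 0.0056), given as log2 fold changes. All 8 stayed past an adjusted p of 0.05 in every alternative run at that threshold.

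Of the 56 members that were lower, the median log2 fold change was -0.91 and the median WT level 231 normalised reads per kb. Of the 25 that were higher, the median log2 fold change was 0.96 and the median WT level 85.6. The higher genes reached from 2.37 to 1322 reads per kb in the WT and the lower ones from 17.7 to 4429. The longest gene that rose has 7279 bases and the longest that fell 13343.

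Of the 5 longest members, 2 passed the threshold, both lower in HLM23, where 28.9% of all tested genes passed and 14.3% were lower. The longest, at 641377 to 656394 on chromosome 18 (15018 bases), stood at 76.0, 51.7 and 106 normalised reads in HLM23 and at 135, 92.0 and 68.6 in the WT (-0.34 ± 0.35 SE as log2 fold change, limma adjusted p = 0.49). The gene at 1096119 to 1111024 on chromosome 4 (14906 bases) shares 10875 of its bases with a gene on the other strand and had a log2 fold change of 0.23 (limma adjusted p = 0.67). The gene at 929136 to 942478 on chromosome 1 (13343 bases) fell from 1367 ± 244 to 901 ± 158 normalised reads (SD, n = 3, limma adjusted p = 0.032). This call was lost in 5 of 18 alternatives, the stricter adjusted p under 0.01 among them. The gene at 836592 to 849932 on chromosome 11 (13341 bases) was the most abundant of the 5, at 6517, 5974 and 6657 normalised reads in HLM23 and 8247, 6286 and 6644 in the WT, and the strains overlapped (limma adjusted p = 0.53). The gene at 1084671 to 1097829 on chromosome 12 (13159 bases) fell from 876 ± 130 to 444 ± 122 normalised reads (SD, n = 3), or to 50.7% of the WT mean (limma adjusted p = 0.0056).

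After NO09G00830, the 4 members with the highest levels per kb divided evenly between rises and genes that missed the threshold. Of all tested genes, 28.9% passed it and 14.5% were higher. The gene at 522681 to 527198 on chromosome 20 stood at 9640, 9817 and 10638 normalised reads in HLM23 and at 11204, 11225 and 11482 in the WT; the strains did not overlap, but the change was small (-0.17 ± 0.14 SE as log2 fold change, limma adjusted p = 0.38). The gene at 139141 to 143491 on chromosome 20 rose from 5754 ± 425 to 9358 ± 1411 (SD, n = 3, log2 fold change 0.69, limma adjusted p = 0.0074). The gene at 334906 to 339411 on chromosome 21 stood at 6824 ± 983 in HLM23 against 7800.5 ± 1405 in the WT (SD, n = 3, limma adjusted p = 0.44). The gene at 308329 to 312965 on chromosome 26 rose from 4687 ± 846 to 7213 ± 1494 (SD, n = 3, log2 fold change 0.62, limma adjusted p = 0.029). This call was lost in 6 of 18 alternatives, the stricter adjusted p under 0.01 among them.

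Genes just inside and just outside the length limit were mixed. The 3 shortest members, of 4007, 4016 and 4024 bases, stood at 1340 ± 301, 247 ± 80.7 and 1185 ± 256 normalised reads in HLM23 and at 739 ± 106, 127 ± 27.8 and 1312 ± 80.1 in the WT (SD, n = 3). The 3 longest genes without introns under the limit, of 3993, 3987 and 3980 bases, stood at 1465 ± 314, 655 ± 180 and 5.33 ± 6.69 in HLM23 and at 2090 ± 297, 828 ± 96.2 and 6.38 ± 4.26 in the WT (SD, n = 3).

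Members were next to each other in 7 places, and in 6 of these pairs the fold changes had the same sign, and at most 1 gene of a pair passed the threshold. Since 69.1% of all members had a value below 0, like signs are frequent in any pair, and neighbours were not tested. NO02G03880 lies 448 bases from a member on the other strand (1053002 to 1058116), which stood at 779 ± 174 normalised reads in HLM23 against 685 ± 141 in the WT (SD, n = 3, limma adjusted p = 0.55). The genes at 936367 to 941817 and 942797 to 947878 on chromosome 7 lie in tandem, 979 bases apart, and had log2 fold changes of 1.26 (limma adjusted p = 0.078) and 2.05 (limma adjusted p = 0.0049). On chromosome 13 the genes at 647877 to 652049 and 652085 to 656627, in tandem 35 bases apart, had log2 fold changes of opposite sign, -0.44 (limma adjusted p = 0.057) and 0.50 (limma adjusted p = 0.023).

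Of the 14 members that overlap a gene on the opposite strand, 1 was higher and 6 were lower, where 14.5% and 14.3% of all tested genes were. Among the 221 comparison genes that overlap another gene, 26 were higher and 39 lower, or 11.8% and 17.6%. The sources used here do not say how strand was handled in the counting, so reads of such a gene and its partner cannot be told apart. The gene at 445784 to 452009 on chromosome 20 shares 4720 of its 6226 bases with its partner, and the partner stood at 338 ± 122 normalised reads in HLM23 against 545 ± 82.9 in the WT (SD, n = 3, log2 fold change -0.75, limma adjusted p = 0.058). The member at 715449 to 719838 on chromosome 10 shares only 49 bases and fell by 0.86 in log2 terms (limma adjusted p = 0.014), with its partner at 0.42 (limma adjusted p = 0.23). The 177 members without an overlap held 24 higher and 50 lower genes (41.8% called), that is 13.6% higher and 28.2% lower. Of all tested genes without an overlap 14.5% were higher and 14.3% lower, and of such comparison genes 15.4% and 21.6%.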

How the data were processed

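RNA-seq of 3 HLM23 and 3 WT samples was used, grouped by sample titles. Per the labels' protocols, 1 μg of RNA per sample went into messenger RNA libraries read as paired ends, and a sequencing company did the mapping and counting. Tools named in the submitters' processing notes are fastp, HISAT2, featureCounts and, among the authors' tools, DESeq2. The sources used here do not give versions, build, annotation or how strand was counted. The sample columns hold a signal deposited by the authors: within a library all values are whole multiples of 1 step (tolerance 0.001 of a read), which is how reads look after division by a size factor. The FPKM columns deposited by the authors served only to check levels. The authors' deposited log2 fold changes and p-values were an alternative. These scalings do not correct for gene length effects that differ between libraries.

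Genes with a mean of at least 1 (9452) were tested on the scale log2(value + 1) with limma 3.58.1 (R 4.3.3), using a mean-variance trend, all 6 samples and Benjamini-Hochberg adjustment at 0.05 over all genes. Fold changes on this scale understate the change of low genes. The script was tested on simulated data. Levels were compared between genes as normalised reads per kb of listed length. Length weighting used ranges starting at 4000, 5000, 6000 and 8000 bases. The length trend was a natural spline on log2 length with 4 degrees of freedom. No 2 libraries were alike within counting noise: the lowest chi-square per gene of any pair was 23.2.

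The members and the genes to name were chosen with earlier results of these data known. At most 2 members that rose and 2 that fell were named by ID, as the largest fitted changes past the threshold with non-overlapping strains and a mean of 10 or more. By position followed the next 8 in each direction, the 5 longest, the 5 with the highest reads per kb, and 3 on each side of the length limit. Cell type markers were not used, since the alga is single-celled. Alternatives were other pseudocounts, filters, scalings, thresholds, length limits, limma voom, a replicate block, libraries left out and the authors' values. A length trend fitted on intron-containing genes alone, and leaving out genes whose FPKM used a shorter length, were added after seeing the data.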

Additional observations from a re-analysis of the deposited data

How the results depend on the processing

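Of the 81 members called as reported (25 higher, 56 lower), an adjusted p under 0.01 left 42 (13 higher, 29 lower, background 13.8%), and 172 of the 332 comparison genes. Equal library totals gave 16 higher (background 10.8%) and a median log2 fold change of -0.32. Leaving out 1 library gave 42 to 75 calls (13 to 24 higher, 29 to 52 lower) among the members and 191 to 324 among the comparison genes. The share called of all tested genes moved with them, from 16.2% to 28.7%. The members' median log2 fold change was then -0.27 to -0.19, with differences from the length-weighted comparison genes of -0.12 to -0.076. Their level was 82.0% to 82.8% of that of the comparison genes. Leaving out both replicate 2 libraries gave a median of -0.30 and a difference of -0.13. From 3000 bases on, 159 of 436 genes without introns were called (66 higher, 93 lower) and 616 of 1867 with introns, the difference was -0.033 and the level 70.9%. From 5000 bases on, 39 of 87 (11 higher, 28 lower) and 174 of 478 were called, the median was -0.33, the difference -0.23 and the level 75.5%. The background at both limits was 28.9% of all tested genes. In the ranges from 4000, 5000, 6000 and 8000 bases the level was 85.7%, 75.6%, 77.1% and 78.8% of the comparison genes, against 82.4% over all. The size of the difference in fold change and in level thus depended on the length limit, and the cause was not tested. Its sign stayed the same in all these alternatives.

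With the replicate block, 76 members were called (23 higher, 53 lower) and 328 comparison genes. The background was then 27.9% of all tested genes (14.2% higher, 13.7% lower). The replicate numbers could not be taken as pairs: correlations of deviations were -0.069, -0.11 and 0.15, and 2 of 6 libraries correlated best with their own number. The other pseudocounts, filters, limma voom, the authors' table, both length trends and the genes left out for overlap or for a shorter FPKM length moved these counts by less than 1.5 times. For 36 genes named or shown by position, the disrupted gene included, 647 further values were computed. Of these, 593 kept direction and side of the threshold. A further 43 lost the threshold, misses of the stricter 0.01 included, 7 gained it and 4 turned sign. Without HLM23 replicate 3 these were the gene at 1096119 on chromosome 4 (-0.0066), that of 4024 bases (0.018) and that of 3980 bases (0.0050); the last was also at 0.15 without both replicate 2 libraries. Leaving out 1 library moved the first from -0.0066 to 0.48 and the last from -1.40 to 0.0050. None of these genes passed the threshold. The planned count models (edgeR, DESeq2) were not run, because an automatic test for whole reads did not accept the columns of HLM23 replicate 3 and WT replicate 3, whose steps are within about 1% of 1. Depth limits the members with few reads, such as the low rises on chromosomes 6, 7 and 8.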

Other observations

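The members with the lowest levels were present in nearly every library. The gene at 83614 to 88370 on chromosome 21, picked out after its values were seen, had 8.69, 7.80 and 22.0 normalised reads in the HLM23 libraries and was listed at 0, 7.66 and 5.04 in the WT libraries. It was the only case in which a member was listed at 0 in a library, and its change missed the threshold (limma adjusted p = 0.13).

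In 3 of the 14 overlapping places the partner on the opposite strand passed the threshold while the member did not. Of these partners 2 were lower and 1 higher, where 28.9% of all tested genes were called. On chromosome 3 the member at 744841 to 748911 and its partner, which share 787 bases, both passed. Their log2 fold changes were -0.88 (limma adjusted p = 0.0028) and -0.83 (limma adjusted p = 0.035). The partner of the member at 650025 to 654319 on chromosome 10, which shares 11 bases with it, stood at 11058 normalised reads in HLM23 against 19551 in the WT (-0.85 ± 0.19 SE as log2 fold change, limma adjusted p = 0.0072), with the member at a log2 fold change of -0.32 (limma adjusted p = 0.16). The partner of the member at 640182 to 644859 on chromosome 17 stood at 265 in HLM23 against 560 in the WT (-1.11 ± 0.25 SE as log2 fold change, limma adjusted p = 0.0068), with the member at -0.50 (limma adjusted p = 0.053). The partner of the member at 256286 to 260324 on chromosome 25, which shares 1601 of the member's 4039 bases, stood at 199 in HLM23 against 107 in the WT (0.85 ± 0.26 SE as log2 fold change, limma adjusted p = 0.030), with the member at 0.042 (limma adjusted p = 0.84).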
